A study of Mus musculus with 10 samples.

Results

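The 45 genes described here are developmental homeobox genes that lie outside the Hox clusters, taken from 21938 protein-coding genes. They were given as a list of names, drawn up with earlier results of these data known. They comprise 6 Dlx genes, 12 LIM genes (Lhx, Isl and Lmx1), 5 Nkx genes, 6 Irx genes, 11 genes of the Msx, Otx, Emx, En, Gbx2 and Evx group, and a group of 5 made of Meis1, Meis2, Pitx1, Barx1 and Vax1. Each gene was taken with its body and 20 kb on each side, on mm10. Where windows overlapped they were merged, which gave 42 loci covering 2.71 Mb.

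Homeobox genes encode transcription factors that bind DNA through a homeodomain and set the identity of body regions, neurons and organs in the embryo. In adult cells of other lineages they are typically kept silent by Polycomb repressive complex 2, whose product is trimethylation of lysine 27 of histone H3 (H3K27me3), a mark that spreads over CpG-rich starts and their surroundings. The SWI/SNF remodeler, which contains the ATPase Brg1 and, in one of its forms, Arid1a, is known to oppose Polycomb complexes. Ctcf binds DNA directly and halts the cohesin ring, of which Rad21 is a subunit.

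Chromatin immunoprecipitation sequencing had been done in AB17, hepatocytes isolated from a C57BL/6 mouse carrying Arid1a fl/fl (floxed alleles) and immortalized with SV40 large T antigen and then an H-Ras virus, under puromycin selection. All cells share these changes, so AB17 is a model of a transformed hepatocyte in culture rather than of liver tissue. WT cells were infected with the empty adenovirus Ad-GFP and kept the Arid1a fl/fl genotype, and KO cells were infected with Ad-Cre and are Arid1a-/-. H3K27me3 and H3K9me3 (the mark of constitutive heterochromatin) were profiled in both genotypes, and Arid1a, Brg1, Ctcf and Rad21 in WT only. There was 1 library for each of these 8 profiles and an input for each genotype, 10 samples in all, so none of the differences could be set against replicates and no p-values were computed. The comparison of genotypes asks what loss of Arid1a does to repressive marks at these genes. Arid1a was not profiled in KO, so its loss could not be checked from these lists.

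The measurement is the position of a peak summit, a single base, and its strength, the −log10 of the q-value of the peak against input. Strengths are given as this −log10 q, with no further unit. The lists held 70408 (Arid1a) to 143835 (WT H3K9me3) summits, and the read depth behind them is unknown. H3K27me3 had 109601 summits in WT and 86050 in KO. Intervals in brackets are exact 95% intervals (Poisson for densities, Clopper-Pearson for shares and for ratios of counts) and cover counting error only. Expression was not analysed here, so the cell type could be looked at only through the marks. An H3K27me3 summit lay within 2 kb of the start in WT in 2 of 11 hepatocyte genes (18.2%) and 12 of 21 liver transcription factors (57.1%), against 23.4% of all coding genes. It did so in 2 of 4 endothelial, 0 of 3 immune and 1 of 4 stellate cell markers, lists too short to read further.

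H3K27me3 was dense at the homeobox loci. They held 438 summits in WT, 161 per Mb, which was 4.01 times the genome density (3.64 to 4.41), and 423 in KO, 156 per Mb and 4.93 times the genome density (4.48 to 5.43). In WT, 44 of 45 windows held at least 1 H3K27me3 summit and in KO 41, against 54.2% and 46.3% of all coding genes. Emx2 had none in either genotype, and Lhx9, Isl1 and Meis2 had some in WT and none in KO. Most of the summits lay between genes (300 of 438 in WT and 264 of 423 in KO), and 102 and 123 lay in introns.

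The other lists followed a different order. Rad21 had 238 summits in the same loci, 2.35 times the genome density (2.06 to 2.67). Ctcf had 161, at 1.77 times (1.51 to 2.06). Arid1a had 95, at 1.35 times (1.10 to 1.66), and Brg1 had 99, at 1.22 times (0.991 to 1.48). Gene windows hold more of these factors than the rest of the genome. Against the windows of all coding genes the ratio was 1.55 for Rad21, 1.15 for Ctcf, 0.923 for Arid1a and 0.829 for Brg1, while that of H3K27me3 stayed at 3.08 in WT and 3.79 in KO.

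**Figure D1:**
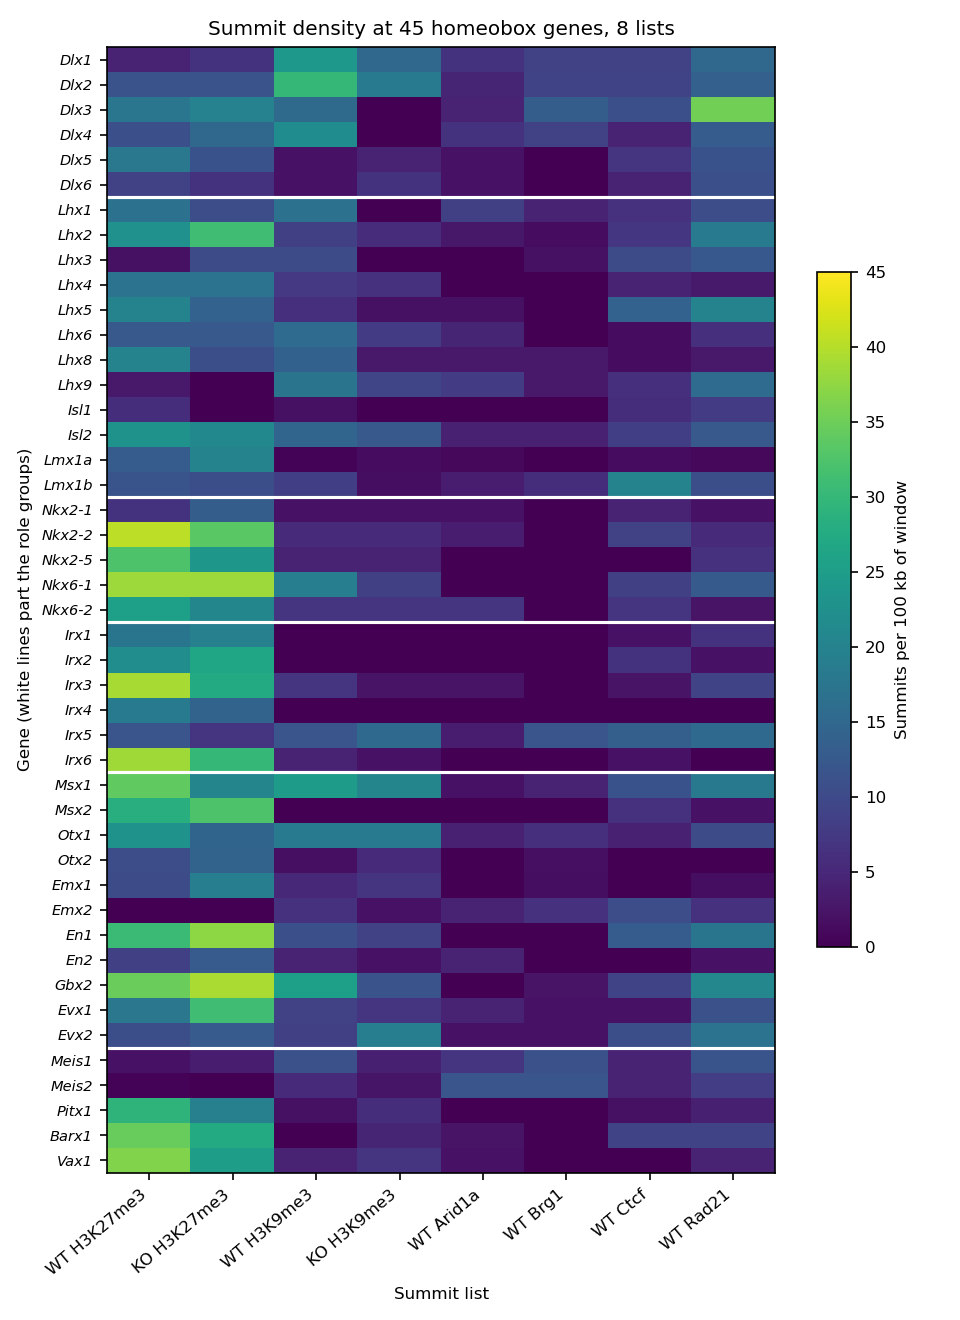
Summits per 100 kb of window (colour) at 45 homeobox genes (rows, parted by white lines into role groups) in the 8 summit lists (columns), 1 library each. The first 2 columns, H3K27me3, are the brightest for most Nkx and Irx genes, reaching 40.6 per 100 kb at Nkx2-2, whereas Emx2 is at 0 there and Meis2 is brighter in the Arid1a and Brg1 columns.

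The total number of H3K27me3 summits at these genes was close in the genotypes. The KO to WT ratio of counts over the 42 loci was 0.966 (0.843 to 1.11), against 0.785 (0.778 to 0.792) for the whole lists and 0.785 over the windows of coding genes. The interval at the homeobox loci contains 1 and lies above the ratio of the lists. The ratio passed 1 with a flank of 5 kb (1.25) and for summits of at least 3 (1.18, against 0.934 for the whole lists). Of the 45 members, 37 had 10 or more summits in both genotypes together. Of these, 7 were lower in KO by at least 1.5-fold, 5 were higher and 25 lay within that range. Among coding genes with as many summits, 35.8% were lower and 6.86% higher by this rule. When counts were divided by the totals of the lists, 0 members were lower and 11 higher, against 18.5% and 16.1% of coding genes, so the direction of single genes depends on this scaling. The exact interval of the ratio contained 1 for each of the 37 members.

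**Figure D2:**
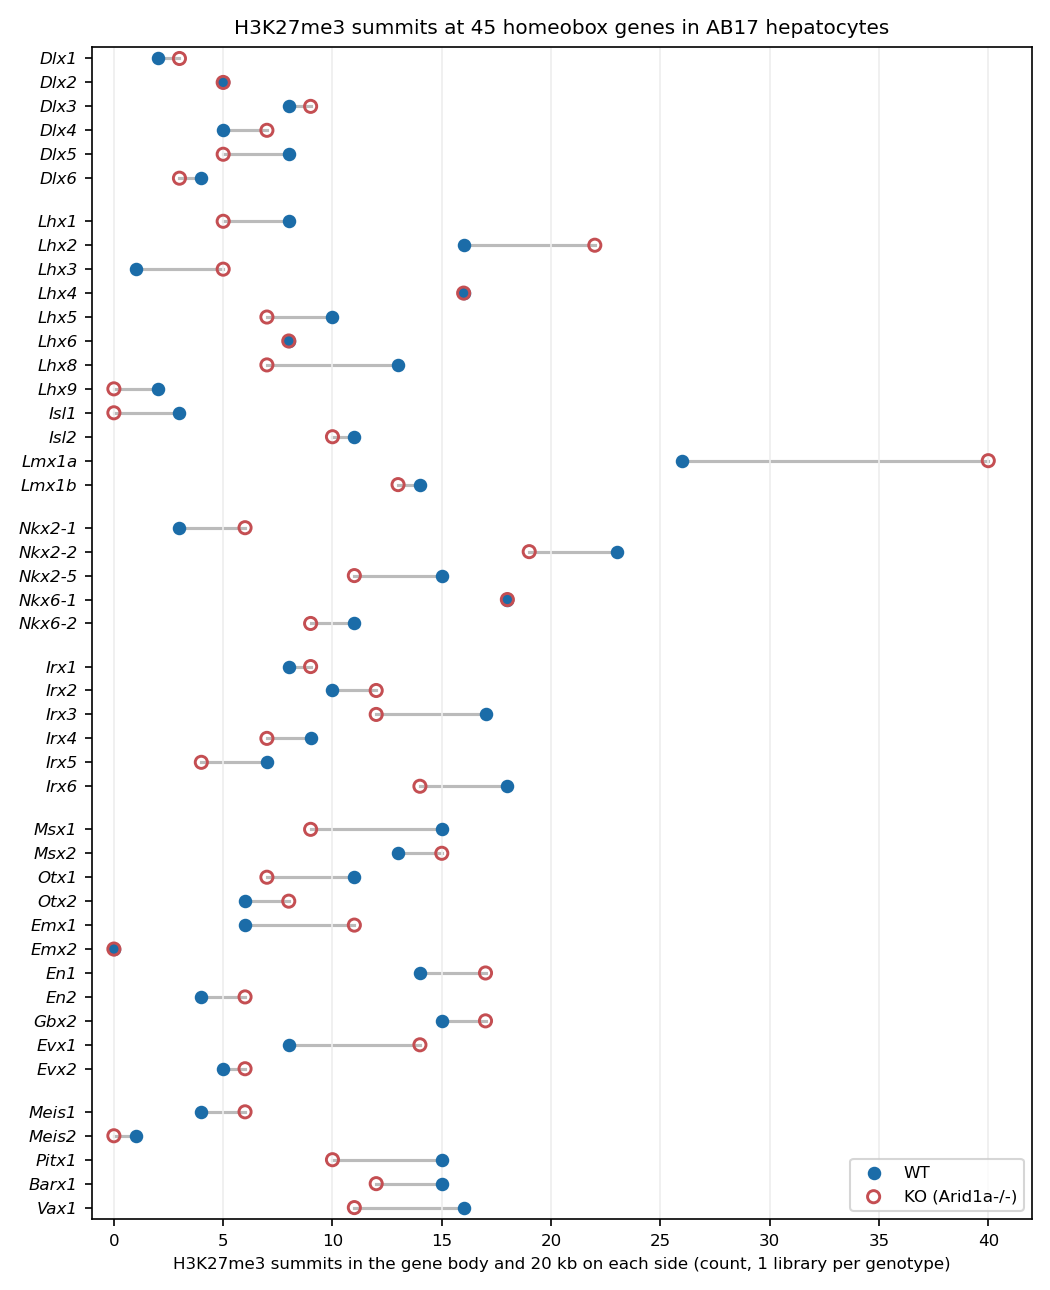
Number of H3K27me3 summits in the gene body and 20 kb on each side for 45 homeobox genes, in WT (filled blue) and KO (open red), 1 library each. Most pairs lie close together, and the widest gaps are at Lmx1a (26 in WT, 40 in KO), Lhx2 (16 and 22), Lhx8 (13 and 7), Msx1 (15 and 9) and Evx1 (8 and 14).

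Position by position the lists overlapped in part. Of the 438 WT summits, 57.8% (53.0 to 62.4) had a KO summit within 1 kb, against 54.4% of the whole WT list. In the other direction, 60.3% (55.4 to 65.0) of the 423 KO summits had a WT summit within 1 kb, below the 68.3% of the whole KO list. The WT share was near that of the whole WT list. It also depends on the distance allowed, with 38.8% within 500 bp and 87.4% within 3000 bp.

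Strength gave another picture than number. The strongest H3K27me3 summit of the window was weaker in KO in 34 of the 41 members that had one in both genotypes, with a median KO to WT ratio of −log10 q of 0.731. Over all coding genes with a summit in both, the strongest was weaker in KO in 72.5%, with a median ratio of 0.815. Among genes whose strongest WT summit was at least 10, the shares were 29 of 32 members and 88.2% of 2798 coding genes, and among genes whose strongest KO summit was at least 10 they were 26 of 30 members and 74.9%. Ranked by percentile within its own list, the strongest summit was lower in KO in 30 of 41, and this share was not computed over all coding genes. The 7 members whose strongest summit was higher in KO were Dlx1, Dlx2, Dlx4, Nkx6-2, Otx1, En1 and Evx2. Dlx1 and Dlx2 share their strongest summit, and with members of shared summits counted once 33 of 39 were weaker. At Dlx4 the KO value of 18.4 is the summit at the Dlx3 start, and the WT summit of 18.5 there lay 163 bp outside the Dlx4 window, so its higher KO value follows from the edge of the window. Summits of at least 20 numbered 20 in WT and 10 in KO at the loci, and 605 and 287 in the whole lists. A −log10 q value depends on read depth and on input as well as on enrichment, and the part of depth in this difference was not tested.

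**Figure D3:**
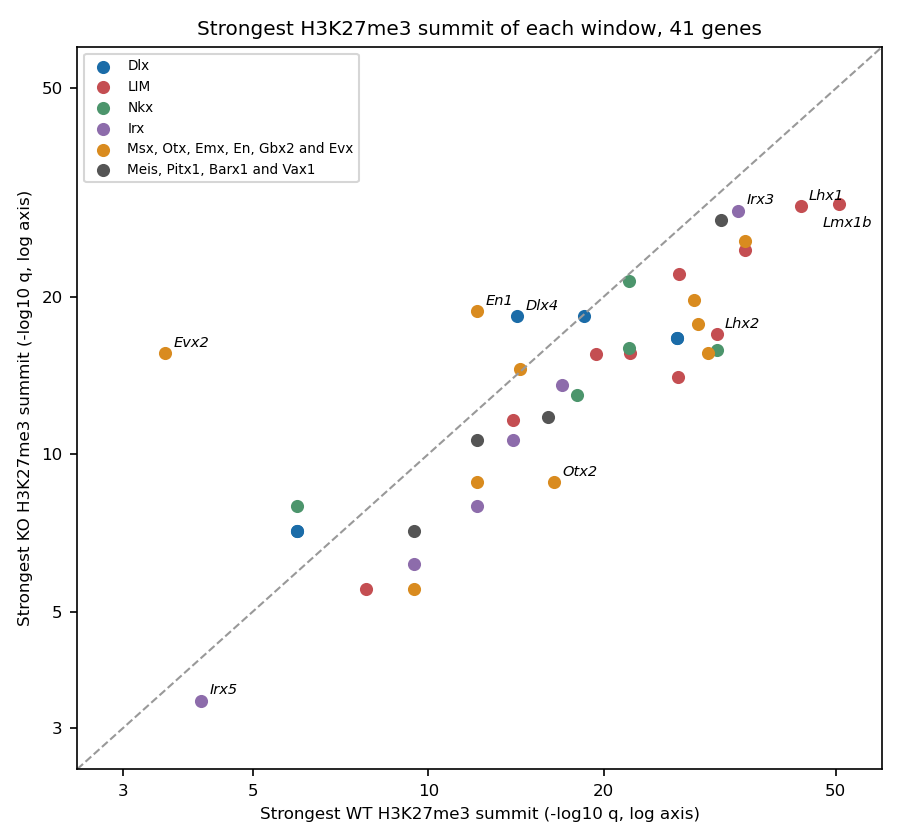
Strength (−log10 q, log axes) of the strongest H3K27me3 summit of each window in WT and KO for the 41 homeobox genes with a summit in both, 1 library each, coloured by role group. The dashed line marks equal strength, and 34 genes lie below it, with Lmx1b (50.7 in WT, 30.1 in KO) and Lhx1 (43.5 and 29.8) farthest to the right and Evx2 (3.53 and 15.6) farthest above it.

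Strong summits had more distant neighbouring summits than weak ones, at these loci and in the whole lists. In WT, a summit of at least 10 at the homeobox loci had its nearest neighbour at a median of 6124 bp (n = 44), one between 5 and 10 at 1808 bp (n = 60) and a weaker one at 1273 bp (n = 334). The KO medians were 6817, 2163 and 1240 bp. The strongest summit of a window, where it reached 10, was flanked by a stretch free of other summits with a median span of 18.2 kb in WT (32 members) and 20.9 kb in KO (30 members). In the whole lists, too, summits of at least 10 had the farthest neighbours, at a median of 3855 bp in WT and 3711 bp in KO. Those below 5 had theirs at 1362 and 1357 bp. Each peak is represented here by its summit alone, and peak widths were not analysed. A stretch free of other summits may therefore still carry the mark. How much of a window was marked is not known from these counts, and whether peak width sets the spacing was not tested.

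Dlx genes, which pattern the branchial arches, limbs and forebrain, sit in pairs, so that members of a pair share summits. The Dlx5 and Dlx6 pair carried a strong summit in the noncoding gene Dlx6os2, 976 bp downstream of the Dlx6 start, at 26.7 in WT, and the strongest KO summit of that window, 16.6, lay 10049 bp away. Dlx5 was lower in number in KO, with 8 summits in WT and 5 in KO (ratio 0.625, 0.161 to 2.17). Dlx3, a regulator of skin and placenta, had 8 and 9 summits and kept its strength, at 18.5 in WT within its UTR and 18.4 in KO within its coding exon. Dlx1 had 2 and 3, the fewest of the group, and its strongest were only 5.95 and 7.12, shared with Dlx2. Dlx2 had 5 summits in each genotype, Dlx4 5 and 7, and Dlx6 4 and 3.

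LIM genes specify motor neurons, interneurons, limb dorsal side and pituitary. Lmx1a, a determinant of midbrain dopamine neurons, had the most summits of all members, 26 in WT and 40 in KO (ratio 1.54, 0.916 to 2.63), spread over a window of 199.5 kb. Its paralogue Lmx1b, a dorsal limb factor, had 14 and 13, and the strongest summit of all members, 50.7, lay in its intron 417 bp downstream of the start. In KO the strongest was 30.1 and lay 1938 bp before the start. Lhx1, a kidney and head organizer gene, had 8 and 5 summits (0.625, 0.161 to 2.17). One of them, at 43.5 in WT, lay 2102 bp downstream of the start and that of KO, 29.8, lay 1579 bp downstream of it.

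Lhx3, a pituitary regulator, shows how number and strength part. It had 1 WT summit, the fewest of the LIM group, yet that summit, in the UTR, measured 34.9 and the nearest other lay 24.6 kb away. In KO there were 5, the strongest at 24.6. Lhx8, needed for cholinergic neurons and oocytes, had 13 and 7 (0.538, 0.182 to 1.45), with strongest summits of 19.4 and 15.6. Lhx2, a factor of the eye, forebrain and liver stellate cells, had 16 and 22. Isl1 had 3 weak WT summits (strongest 3.44) and none in KO, while its paralogue Isl2 had 11 and 10, the strongest at 26.8 and 14.1. Lhx9, a gonad factor, had 2 WT summits up to 2.29 and none in KO. The remaining LIM genes lay within 1.5-fold, with 16 summits in each genotype for Lhx4, 10 and 7 for Lhx5 and 8 in each for Lhx6, a factor of cortical interneurons.

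The Nkx genes had the highest density of H3K27me3 by group median, 32.4 summits per 100 kb in WT and 23.7 in KO. Nkx2-2, a factor of ventral spinal cord and pancreatic beta cells, had 23 and 19 summits, 40.6 and 33.5 per 100 kb, the densest WT window of the 45. Nkx6-1, also a beta cell factor, had 18 in each genotype with strongest summits of 22.1 and 21.4. Nkx2-5, the cardiac factor, had 15 and 11, and its strongest went from 31.3, in its intron 362 bp downstream of the start, to 15.8. Nkx2-1, of thyroid and lung, had the fewest, 3 and 6, and Nkx6-2, of oligodendrocytes, had 11 and 9. None of the 5 Nkx windows held a Brg1 summit, against 22 of the 45 members and 74.8% of all coding genes with at least 1 in the window.

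Irx genes form a cluster on chromosome 13 (Irx1, Irx2 and Irx4) and one on chromosome 8 (Irx3, Irx5 and Irx6), and pattern neural tube, heart and limb. On chromosome 13 the 3 genes had 8, 10 and 9 H3K27me3 summits in WT and 9, 12 and 7 in KO, with no summit of Arid1a, Brg1 or H3K9me3 in any window. Over all coding genes, 73.7% of windows held Arid1a, 74.8% Brg1 and 86.8% H3K9me3 in WT. On chromosome 8, Irx6 had 18 and 14, Irx3 17 and 12 and Irx5 7 and 4 (0.571, 0.123 to 2.25). Irx3 carried a WT summit of 33.9 in its coding exon 2007 bp downstream of the start, and a KO summit of 29.2 that lay 2027 bp before the start, in Irx3os. Irx5 stood apart from its neighbours. Its strongest H3K27me3 summits were 4.08 and 3.38, and it alone of the 6 held Brg1, with 7 summits. All 6 Irx genes had a weaker strongest summit in KO.

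Of the Msx, Otx, Emx, En, Gbx2 and Evx group, which patterns the head, the midbrain border and the neural crest, 8 of 11 had more summits in KO and 2 fewer. Of all 45 members 18 had more and 22 fewer, and differences of any size were not counted over all coding genes. By the 1.5-fold rule 3 of 10 in this group were higher and 2 lower, against 6.86% and 35.8% of coding genes. Emx1, of the cerebral cortex, had 6 and 11 (1.83, 0.621 to 6.04), although its strongest went from 28.6 to 19.7. En2, of midbrain and cerebellum, had 4 and 6 (1.5, 0.356 to 7.23), with strongest values of 30.1 and 15.6. Evx1 lies beside the HoxA cluster and had 8 and 14 (1.75, 0.685 to 4.81) and strongest values of 34.9 and 25.5. Msx1, of tooth and neural crest, had 15 and 9 (0.60, 0.232 to 1.46) and Otx1, of forebrain, 11 and 7 (0.636, 0.209 to 1.80). Gbx2, of the hindbrain border, matched Msx1 in WT with 15, and had 17 in KO. Msx2 had 13 and 15, Otx2 6 and 8, and En1, the partner of En2 in the midbrain, 14 and 17. Evx2, which lies beside the HoxD cluster and has 3 other coding starts in its window, was the member whose strongest summit gained most, from 3.53 to 15.6. Both KO and WT positions there lay over 10 kb downstream of the start.

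Emx2, the paralogue of Emx1 and a gene of cortex and urogenital tract, was the only one of the 45 with no H3K27me3 summit in its window in WT or KO. At chromosome 19, 59458372 to 59465357 on the plus strand, the nearest one to its start was 42.7 kb away in WT and 70.1 kb away in KO. It held 3 Brg1 summits, 2 Arid1a summits and 5 Ctcf summits.

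Meis1 and Meis2 encode partners of Hox proteins and are used in many adult cell types. Meis2, on chromosome 2 from 115863064 to 116065839, minus strand, had 1 weak H3K27me3 summit (2.23) in a window of 242.8 kb, none in KO, and 29 summits each of Brg1 and Arid1a, 11.9 per 100 kb. Meis1 had 4 and 6 H3K27me3 summits (1.5, 0.356 to 7.23), the strongest 143 kb from the start, with 20 Brg1 and 12 Arid1a summits. The medians over all coding genes were 3.94 per 100 kb for Brg1 and 3.29 for Arid1a. Vax1, an optic nerve factor, had 16 and 11 H3K27me3 summits, the most of this group in WT, and Barx1, of stomach and jaw, 15 and 12. Pitx1, which gives the hindlimb its identity, had 15 and 10 (0.667, 0.268 to 1.59), with strongest values of 16.0 and 11.8.

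**Figure D4:**
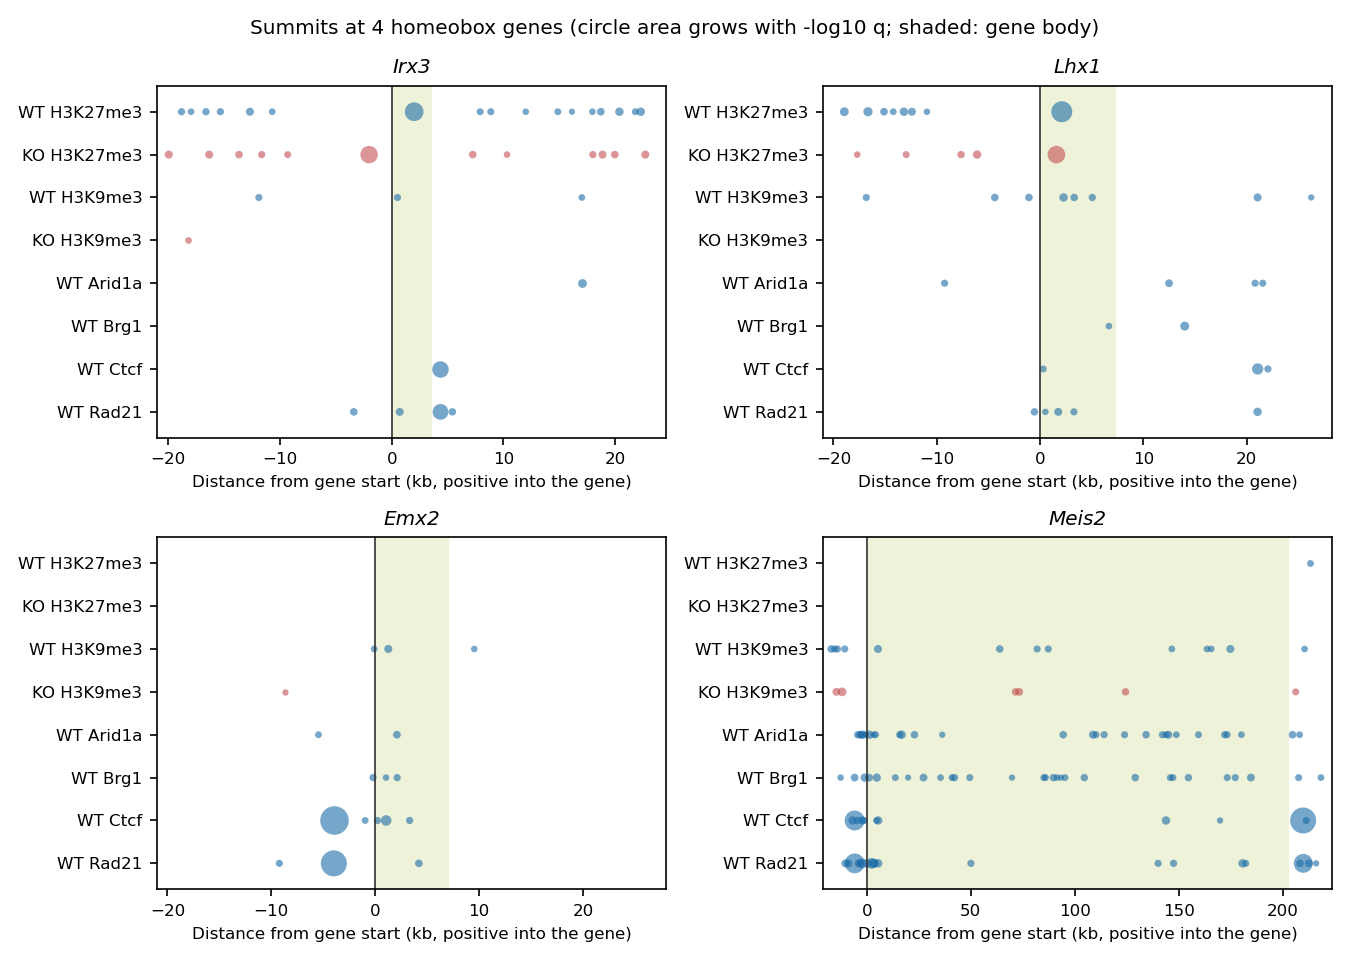
Summits of the 8 lists (rows, WT blue and KO red) at Irx3, Lhx1, Emx2 and Meis2 by distance from the gene start in kb, with circle area growing with −log10 q and the gene body shaded. Irx3 and Lhx1 each show 1 large H3K27me3 summit near the start, with no other H3K27me3 summit close to it, in WT and KO. Emx2 shows none, and Meis2 has 1 small WT summit beyond the gene's end beside rows of Arid1a and Brg1 summits.

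The gene starts were marked by H3K27me3 more often than those of coding genes at large. An H3K27me3 summit lay within 2 kb of the start in 20 of 45 members (44.4%) in WT and 21 (46.7%) in KO, against 23.4% and 19.8% of coding genes. In both genotypes 13 were marked (Dlx3, Lhx6, Lmx1a, Lmx1b, Nkx6-2, Irx2, Irx4, Irx6, Otx2, Emx1, En1, Barx1 and Vax1), 7 in WT only (Dlx6, Lhx2, Isl1, Nkx2-5, Irx1, En2 and Evx1) and 8 in KO only (Lhx1, Lhx4, Lhx8, Nkx2-1, Nkx2-2, Nkx6-1, Msx2 and Gbx2). The shares over all coding genes were 17.2% for starts marked in both, 6.14% for WT alone and 2.58% for KO alone. Widening the window to 5 kb gave 35 and 33 members. For several of these genes a strong summit lay just outside 2 kb, such as that of Lhx1 in WT. The strongest summit lay at a median of 3315 bp from the start in WT and 4283 bp in KO, and the strongest of the 2 genotypes lay a median of 2255 bp apart.

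The members had the most H3K27me3 summits per 10 kb far from the start. In WT they had 1.56 H3K27me3 summits per gene per 10 kb in the first kb on either side of the start, 0.889 in the second kb, 1.33 between 2 and 5 kb, 1.76 between 5 and 10 kb and 2.04 between 10 and 20 kb. The lowest and the first of these values rest on 8 and 14 summits. Counts of summits do not show how much of the mark lay at each distance. The strongest WT summit lay within 5 kb of the start in 27 of the 41 members with a summit in both genotypes. All coding genes went down with distance, from 0.980 in the first kb to 0.676 between 10 and 20 kb. Brg1 at the members went from 1.11 to 0.189 per gene per 10 kb, and at all coding genes from 2.03 to 0.513.

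**Figure D5:**
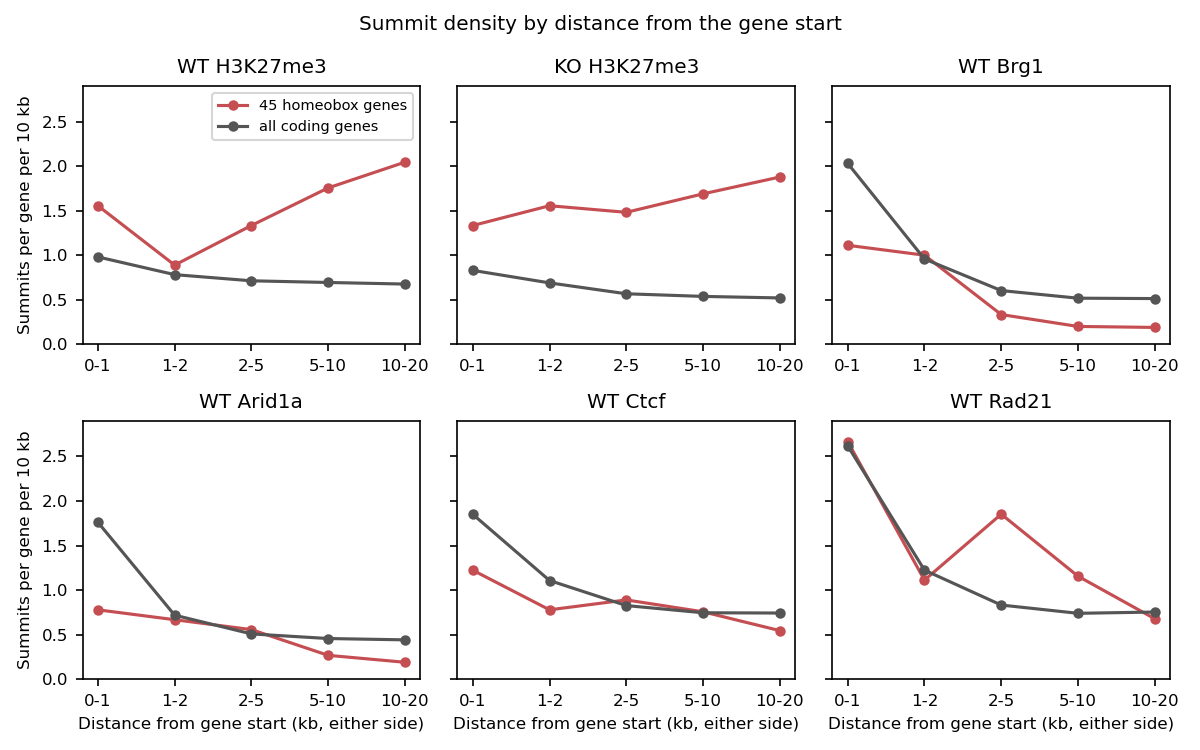
Summits per gene per 10 kb (vertical axis) by distance from the gene start on either side (horizontal axis, bins in kb) for the 45 homeobox genes (red) and all coding genes (grey), in 6 lists with 1 library each. H3K27me3 of the homeobox genes lies above all genes in every bin and reaches 2.04 in WT at 10 to 20 kb. Their Brg1 lies below in the first kb (1.11 against 2.03) and from 2 kb outward. Between 1 and 2 kb it stands at 1 against 0.958. Rad21 stands at 1.85 against 0.831 between 2 and 5 kb.

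Brg1 and Arid1a were uncommon at these starts. Brg1 lay within 2 kb of the start in 9 of 45 members, against 39.6% of coding genes, and Arid1a likewise in 9, against 35.2%. Together they marked 12 starts. Brg1 and Arid1a were both present at Dlx1, Dlx4, Irx5, Otx1, Meis1 and Meis2. Brg1 without Arid1a lay at Lhx9, Msx1 and Emx2, and Arid1a without Brg1 at Lhx2, En2 and Barx1. Their summits were weak, as in the whole lists. The strongest of any member were at Dlx1, at 6.60 for Brg1 and 7.52 for Arid1a, both in the UTR.

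Members with Brg1 or Arid1a at the start had a lower median of H3K27me3 summits than the rest. The 12 had a median of 9.76 H3K27me3 summits per 100 kb in WT and 9.86 in KO, and the other 33 had 18.1 and 19.6. The groups overlapped, from 0 to 34.5 among the 12 and from 2.08 to 40.6 among the 33 in WT. Of the 12, an H3K27me3 summit lay at the start in 3 in WT (Lhx2, En2 and Barx1) and 1 in KO (Barx1), and of the 33 in 17 and 20. All 3 had Arid1a and not Brg1 there, so that none of the 9 members with Brg1 within 2 kb of the start had H3K27me3 there. This depends on the 2 kb limit. The nearest WT H3K27me3 summit lay 2045 bp from the start at Otx1, 3315 bp at Dlx4 and 3336 bp at Msx1. Over all coding genes, H3K27me3 lay at 13.2% of 10596 starts with Brg1 or Arid1a in WT and at 9.58% in KO. For the 11342 starts with neither, the shares were 32.9% and 29.4%. The share for starts with Brg1 alone was not computed. Across the loci, 2.28% (1.10 to 4.16) of WT H3K27me3 summits had Brg1 within 1 kb, against 2.96% of the whole list.

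The bases before the start are shown for 5 members that differ in these marks, to set the CpG content of the starts beside them. Of the 45 members, 34 had a RefSeq promoter entry by symbol, and the 5 have a RefSeq start within 20 bp of the GENCODE start. The 250 bases before the RefSeq start (GRCm38) are written 5′ to 3′ on the gene's strand, with each CpG in capitals. Irx4 (chr13:73260247-73260496, plus strand) has H3K27me3 at its start in both genotypes and no factor, Isl1 (chr13:116309689-116309938, minus) H3K27me3 in WT only with Ctcf and Rad21, Lhx1 (chr11:84525535-84525784, minus) H3K27me3 in KO only with Ctcf and Rad21, Lhx2 (chr2:38339031-38339280, plus) H3K27me3 in WT only with Arid1a and Rad21, and Meis1 (chr11:19018970-19019219, minus) Brg1, Arid1a and Rad21 without H3K27me3.
Irx4: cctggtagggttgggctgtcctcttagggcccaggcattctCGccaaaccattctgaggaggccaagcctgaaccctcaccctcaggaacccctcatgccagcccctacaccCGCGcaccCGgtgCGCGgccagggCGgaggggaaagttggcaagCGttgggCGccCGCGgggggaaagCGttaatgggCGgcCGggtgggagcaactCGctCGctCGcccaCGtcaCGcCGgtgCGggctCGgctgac
Isl1: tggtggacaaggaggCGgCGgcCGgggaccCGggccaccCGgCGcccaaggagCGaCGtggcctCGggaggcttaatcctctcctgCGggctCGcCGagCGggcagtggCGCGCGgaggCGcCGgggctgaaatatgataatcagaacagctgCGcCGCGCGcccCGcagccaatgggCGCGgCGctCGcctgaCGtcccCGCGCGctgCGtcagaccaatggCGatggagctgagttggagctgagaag
Lhx1: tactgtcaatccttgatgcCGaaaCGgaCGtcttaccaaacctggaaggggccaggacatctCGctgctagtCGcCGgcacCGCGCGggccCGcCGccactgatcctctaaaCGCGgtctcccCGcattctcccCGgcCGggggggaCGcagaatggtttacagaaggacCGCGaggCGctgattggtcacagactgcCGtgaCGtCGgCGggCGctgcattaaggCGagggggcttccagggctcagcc
Lhx2: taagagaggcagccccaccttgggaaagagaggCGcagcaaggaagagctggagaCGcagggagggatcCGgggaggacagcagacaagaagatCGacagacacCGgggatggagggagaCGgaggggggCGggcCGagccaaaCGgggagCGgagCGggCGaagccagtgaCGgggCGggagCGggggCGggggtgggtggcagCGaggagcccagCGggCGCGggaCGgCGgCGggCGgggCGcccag
Meis1: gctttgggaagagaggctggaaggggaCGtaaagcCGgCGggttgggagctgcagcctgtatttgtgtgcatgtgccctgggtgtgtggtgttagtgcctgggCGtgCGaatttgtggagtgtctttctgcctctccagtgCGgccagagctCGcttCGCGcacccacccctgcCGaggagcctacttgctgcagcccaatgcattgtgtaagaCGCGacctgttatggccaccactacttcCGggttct
These stretches hold 22 CpGs at Irx4, 33 at Isl1, 26 at Lhx1, 25 at Lhx2 and 13 at Meis1. Over the 250 bases before the GENCODE start, the 45 members had a median of 15 CpGs and a ratio of observed to expected CpG of 0.666, against 8 and 0.486 for all coding genes. A ratio of at least 0.6 was found for 29 members (64.4%) and 41.2% of coding genes. The members with H3K27me3 at the start in either genotype (n = 28) had a median ratio of 0.679 and those without it (n = 17) 0.643, and those with Brg1 or Arid1a (n = 12) had 0.722. The share with a ratio of at least 0.6 was 64.3% with H3K27me3 at the start and 64.7% without it. Over all coding genes, those with WT H3K27me3 at the start had a median ratio of 0.453. The range among members was wide, from 1 CpG at Lhx4 to 39 at Lmx1b.

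The ratio of summit counts was lower for H3K9me3 than for H3K27me3. The loci held 224 summits in WT and 139 in KO, a ratio of 0.621 (0.499 to 0.770), against 0.938 for the whole lists and 0.736 over coding gene windows. Of 18 members with 10 or more summits, 12 were lower in KO by at least 1.5-fold and 1, Evx2 (4 and 9), was higher, against 57.6% and 12.0% of coding genes. An H3K9me3 summit lay within 2 kb of the start in 23 members in WT and 7 in KO, against 38.7% and 14.0%. Dlx4 had 10 in WT and none in KO, and its neighbour Dlx3 had 7 and none. Lmx1b had 10 and 2, and Meis1 20 and 7. The summits were weak, with Msx1 the strongest at 10.1 in WT, and the loci had 1.56 times the genome density in WT and 1.03 times in KO. The lower number in KO at starts was seen over coding genes at large, and what sets it was not tested.

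Ctcf and Rad21 were present at most of these genes, as at most coding genes. Ctcf had a summit in 39 of 45 windows (86.7%), against 84.9% of coding genes, and Rad21 in 42 (93.3%), against 84.3%. At the start, Ctcf lay within 2 kb in 14 members against 42.5% of coding genes, and Rad21 in 22 against 50.6%. Of the 161 Ctcf summits, 65.8% (58.0 to 73.1) had Rad21 within 1 kb, against 55.7% of the whole list. An H3K27me3 summit of WT lay within 1 kb of 26.7% (20.1 to 34.2) of them, against 12.5% of all Ctcf summits, and the loci as a whole had 4.01 times the genome density of H3K27me3.

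The 5 members with the strongest Ctcf summit were Dlx3, Lhx2, Emx2, Nkx2-2 and Lmx1b. At Dlx3 the summit measured 100.9 and lay between genes 2925 bp before the start, with Rad21 1 bp away and a WT H3K27me3 summit 711 bp away. At Lhx2 it measured 99.6, 36.9 kb past the start and beyond the gene's end, with Rad21 55 bp away. At Emx2 it measured 82.6, 3924 bp before the start in an intron of Emx2os, with Rad21 60 bp away. At Nkx2-2 (75.7) it lay in the gene's intron 16.2 kb past the start, and at Lmx1b (72.7) beyond the gene's end, 82.1 kb past the start. The strongest Rad21 summit lay at the same place in 4 of these 5, at 68.7 for Lhx2, 68.2 for Emx2, 57.7 for Nkx2-2 and 30.2 for Lmx1b. At Dlx3 it was 59.1 and lay at the locus's second Ctcf summit, 13.1 kb before the start. Of the 31 Ctcf summits of at least 20 in the loci, 6 had an exact match to the 12-base core of the Ctcf consensus within 50 bp on either strand (19.4%), against 21.6% of 16434 such summits in the whole list, and of the weaker ones 4 of 130 (3.08%) against 2.11%. The 6 are shown as 30 bases of the GRCm38 genome, 5′ to 3′ on the strand of the match, with the match in capitals, as examples of the sequence under strong summits with Rad21 beside them.
Dlx3 and Dlx4: ccatggtcaCCACCAGGTGGCaggcccgcc
Meis2: ccctgaaggCCAGCAGGGGGCgctctgatg
Lhx5: gacattgagCCACCAGGGGGCgccaactcg
Lmx1b: acactatggCCAGCAGAGGGCggagtgcac
Dlx1 and Dlx2: ctacactgtCCACCAGGTGGCgccacaaag
Lhx3: atattccttCCACTAGGGGGCagaagaact
They lie between genes 13.1 kb before the Dlx3 start (chr11:95107025-95107054, minus strand), beyond the end of Meis2 (chr2:115855950-115855979, plus), in the UTR of Lhx5 (chr5:120440903-120440932, minus), in the noncoding gene C130021I20Rik 2802 bp before the Lmx1b start (chr2:33643272-33643301, minus), between genes 1270 bp before the Dlx2 start (chr2:71548017-71548046, minus) and in an intron of Qsox2 beside Lhx3 (chr2:26227958-26227987, minus). Their summits measured 93.5, 68.0, 61.3, 55.8, 46.5 and 30.1 in this order, and Rad21 lay 11 to 117 bp from each. At the Dlx3 site Brg1 lay 112 bp away and Arid1a 230 bp away. A match is a description of the letters and does not by itself show which site Ctcf used.

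The median WT H3K27me3 density at the 45 genes was close to that of other homeobox genes outside Hox, whereas fewer of the 45 starts were marked. The 55 other developmental homeobox genes had a median of 17.2 WT H3K27me3 summits per 100 kb against 17.7 for the 45. They were marked at the start in 39 in WT (70.9%) and 40 in KO (72.7%), against 44.4% and 46.7% of the 45. By 1.5-fold, 10 of 44 of them were lower and 7 higher in KO. After division by list totals, 4 of the 44 were lower and 12 higher, compared with 0 and 11 of 37 here. The 39 Hox genes had 4.71 per 100 kb and 10 and 12 marked starts. Among genes with an H3K27me3 summit in both genotypes, the strongest was weaker in KO in 34 of 41 here. It was so in 46 of 54 of the other developmental homeobox genes and in 23 of 24 Hox genes. Brg1 lay at 9 of 45 starts here, at 6 of 55 in the other developmental homeobox genes and at 24 of 39 in Hox genes. Arid1a lay at 9, 7 and 15 starts in the same order. A low share of starts with Brg1 was thus not particular to the 45. Neighbouring Hox genes share windows and summits.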

How the data were processed

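The deposited files were lists of peak summits, 1 for each of 8 ChIP-seq libraries of AB17 cells. Per the study's methods, the authors aligned reads to mm10 with Bowtie2, handled them with SAMtools and Picard, and called peaks per library with MACS2 at default settings against the input of the same genotype. Versions are not given in the sources used here. The deposited strength of a summit is its −log10 q-value, a unit read from the values, the lowest of which lie just above 1.30 (q = 0.05). Genes came from GENCODE vM21 and sequences from RefSeq and GRCm38, the assembly named mm10. No summit lay beyond a chromosome end.

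Summits were counted with Python 3.11.15, numpy 2.4.6 and scipy 1.17.1 in the gene body and 20 kb on each side, and within 2 kb of the start (the 5′ end of the gene record). Summits within 1 kb counted as shared. A genotype difference was called past 1.5-fold with 10 or more summits in both lists together. The counting was tested on simulated lists. With 1 library per group no test, replicate spread or p-value was possible, and intervals cover counting error only. The q-values depend on depth, which is unknown, so strengths of different libraries were also ranked within their lists. The members and the comparison lists were chosen with earlier results of these data known. Genes with full values are the members with the most and the fewest WT H3K27me3 summits in each group, those past 1.5-fold, those with Brg1 or Arid1a at the start and those with the 5 strongest Ctcf summits. Other members named by paralogue or position were picked after their values were seen. Alternatives were the flank, the start window, the sharing distance, the minimum strength, equal list sizes, scaling by list totals, merging of summits, the fold and the minimum count. The inputs and peak widths were not analysed here.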

Additional observations from a re-analysis of the deposited data

How the results depend on the processing

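All counts rest on 1 library per group, so a difference between libraries cannot be told apart from one between genotypes. No paired analysis was possible because no result comes from a test. The KO to WT ratio of H3K27me3 at the loci, 0.966, became 1.25 with a flank of 5 kb, 1.18 for summits of at least 3, 1.16 with equal numbers of summits and 1.23 after division by list totals. The 7 of 37 members lower in KO became 1 of 12 with a flank of 5 kb, 1 of 19 and 2 of 4 for summits of at least 3 and 5, 0 of 34 with equal numbers, 0 of 37 with list totals, 2 of 35 with summits within 1 kb merged, 0 of 37 at a fold of 2 and 3 of 21 at a minimum of 20 summits. The 5 of 37 higher became 3 of 41 with a flank of 50 kb, 1 of 4 for summits of at least 5, 9 of 34 with equal numbers, 11 of 37 with list totals, 0 of 37 at a fold of 2, 8 of 41 at a minimum of 5 and 2 of 21 at a minimum of 20 summits. The share of WT summits kept in KO, 57.8%, was 45.1% and 29.8% for summits of at least 3 and 5, and 38.8% and 87.4% for sharing within 500 and 3000 bp. Starts with H3K27me3 became 35 in WT and 33 in KO within 5 kb. The H3K9me3 ratio was 0.467 for summits of at least 5. The density ratio to the genome was 1.78 for Brg1 and 2.79 for Rad21 with a flank of 5 kb, 0.99 and 1.8 with 50 kb, and 0.936 for Brg1 summits of at least 5. Against coding gene windows it was 0.829 for Brg1, 1.15 for Ctcf and 1.55 for Rad21. The number of members whose strongest summit was weaker in KO, 34, was 30 by percentile, an alternative chosen after seeing the data. The causes were not tested beyond what each setting changes by its construction.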
